A study of Mus musculus with 12 samples.

Results

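Aminoacyl-tRNA synthetases were examined in calf muscle of mice that lack the adaptor protein ankyrin-B in skeletal muscle. The members are all genes whose symbol is 1 capital letter (or Ep) followed by "ars", alone or with a closing 1 or 2, and the rule took 34 of the 24528 genes in the deposited table. Symbols without a suffix were counted as cytosolic enzymes (17 genes) and symbols ending in 2 as mitochondrial enzymes (17 genes). Eprs, which encodes the joint glutamyl- and prolyl-tRNA synthetase, and Farsa and Farsb, the subunits of the cytosolic phenylalanyl enzyme, have other symbol forms and were treated as related genes outside the rule.

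Each of these enzymes joins 1 amino acid to the transfer RNAs that carry it, and the charged tRNA is then brought to the ribosome by an elongation factor. Mammalian cells keep a set of enzymes for the cytosol and a second, nuclear-encoded set that serves the ribosomes inside mitochondria, where subunits of the respiratory chain are made. Gars and Kars each encode both a cytosolic and a mitochondrial form of the glycyl and lysyl enzymes, so the split by suffix places these dual genes with the cytosolic set. Many cytosolic synthetase genes are known targets of ATF4, the transcription factor of the integrated stress response, which is induced when the initiation factor eIF2 is phosphorylated. Skeletal muscle fibres hold much of the body's protein and many mitochondria, and mutations in several synthetase genes cause neuromuscular or mitochondrial disease in people.

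RNA came from gastrocnemius, a calf muscle, of male mice aged 4 months. The 6 WT mice had the genotype Ank2f/f, with floxed alleles of the ankyrin-B gene and no Cre. The 6 KO mice had the genotype Ank2f/f; HSA-Cre+, in which the promoter of human skeletal alpha-actin drives Cre in muscle fibres, and both groups were littermates housed together. Every library was a poly-A library of 1 mouse and of whole muscle, so cells other than fibres keep Ank2. No group carried Cre without floxed alleles, so loss of ankyrin-B and presence of Cre cannot be told apart.

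Values are the deposited log2 values, and a change is the KO mean minus the WT mean on that scale. Testing with limma was limited to genes that reached 10 estimated reads in 6 or more libraries, and a gene was called at a Benjamini-Hochberg adjusted p of 0.05 or less over all 12218 genes tested. The estimated depth was 12284019 to 18705923 reads per library. The targeted gene Ank2 had a mean value of 8.88 ± 0.35 in WT mice against 7.74 ± 0.19 in KO mice (SD, n = 6 each; limma adjusted p = 0.00088). Its groups did not overlap, and KO mice kept 33.1% ± 7.12 of the WT mean. All 8 muscle fibre markers (Acta1, Ckm, Mylpf, Tnnt3, Myh4, Myh1, Myh2 and Atp2a1) were measured. Their summed level was 213678 to 248812 CPM (from estimated reads) in WT libraries and 215034 to 240211 in KO libraries. Of 30 tested markers of 7 other cell types, 4 were called lower in KO and 0 higher, against 3.08% and 3.12% of all tested genes. They were Cdh15 (-0.37, 1 of 3 tested satellite cell markers) and Flt1 (-0.50, 1 of 6 of endothelium). The others were Myh11 (-0.54, 1 of 4 of smooth muscle) and Adipoq (-0.34, 1 of 2 of adipocytes). The Schwann cell markers summed to 39.8 to 151 CPM in WT libraries and 15.0 to 321 in KO libraries, and the part of cell composition in the results below was not tested. The KO libraries varied more than the WT libraries, with the larger SD in KO for 60.5% of the tested genes. In WT 1 the ribosomal precursor gene Rn45s stood far below, and in KO 1 and KO 3 above, the other libraries, so counts are also given without these 3 libraries where they moved.

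All 34 synthetase genes passed the filter on low values. None of them was called as different between KO and WT muscle, against a background of 6.2% of tested genes called (757 of 12218). limma-voom on estimated reads also called none of the 34, against 5.48% of genes. The calls at the threshold of 0.05 divided into 3.12% of genes higher and 3.08% lower in KO. At an unadjusted p of 0.05 or less, 6 of the 34 were higher in KO and 0 were lower, where 26.0% of all tested genes reached that level in either direction and 11.9% did so with a higher KO value. These 6 genes were Vars2, Tars2, Pars2, Hars, Sars2 and Nars2, and 5 of them encode mitochondrial enzymes. For 33 of the 34 genes the 95% confidence interval of the change lay within 0.5 on the deposited log2 scale in either direction. The exception was Lars2, whose values moved with those of the ribosomal precursor. The deposited scale compresses differences of low genes such as Pars2, so for these the interval does not bound the fold change. In bulk muscle, fewer cells of a type and less RNA per cell cannot be told apart.

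**Figure D1:**
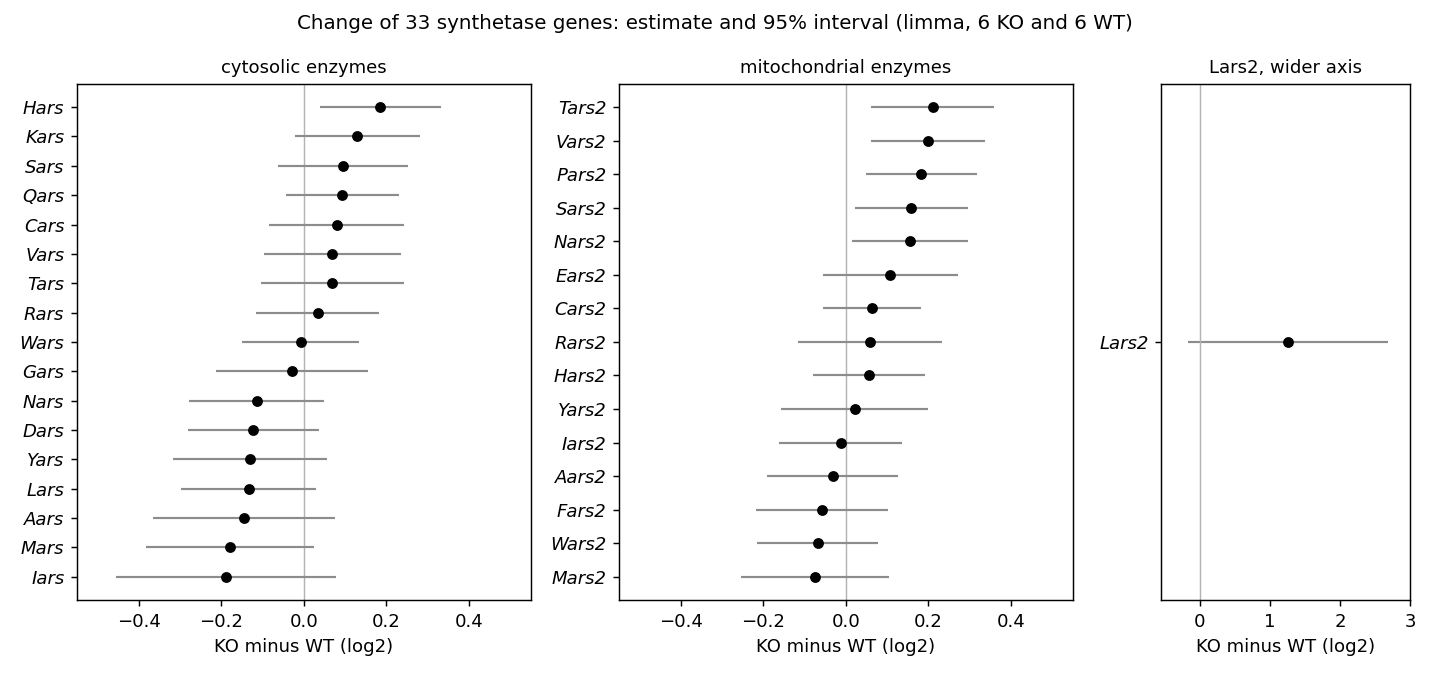
Change of 33 synthetase genes between 6 KO and 6 WT mice (x axis, difference of KO from WT in deposited log2 values); points are limma estimates and bars their 95% confidence intervals, with cytosolic enzymes on the left, mitochondrial enzymes in the middle and Lars2 on a wider axis. The cytosolic changes run from -0.19 for Iars to 0.19 for Hars, and the mitochondrial changes without Lars2 from -0.08 for Mars2 to 0.21 for Tars2.

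The 17 cytosolic enzymes split almost evenly, with 8 changes above 0 and 9 below 0 and a median of -0.01. The median over all tested genes was also -0.01, and 47.6% of tested genes had a positive change. The median half-width of the cytosolic confidence intervals was 0.16. Cytosolic synthetases together took 0.124% ± 0.00454 of all estimated reads of a WT library and 0.123% ± 0.0065 of a KO library (SD, n = 6 each).

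Iars, Mars and Aars had the lowest KO means relative to WT among the cytosolic enzymes. Iars, the isoleucyl enzyme of the multisynthetase complex, had values of 10.39, 10.75, 10.78, 10.41, 10.64 and 10.50 in WT 1 to WT 6 and of 9.95, 10.56, 10.14, 10.49, 10.83 and 10.38 in KO 1 to KO 6. KO 1, KO 3 and, narrowly, KO 6 lay below every WT library and KO 5 above every WT library. The change was -0.19 (SE 0.13, 95% interval -0.45 to 0.08, limma adjusted p = 0.354), with a KO level of 88.3% ± 20.3 of the WT mean. Mars, the methionyl enzyme, which also charges the initiator tRNA, had 10.20, 10.26, 10.16, 10.22, 10.09 and 10.19 in WT 1 to WT 6. In KO 1 to KO 6 it had 9.85, 10.38, 9.71, 9.92, 10.17 and 10.03. The 4 libraries KO 1, KO 3, KO 4 and KO 6 lay below the WT range, KO 5 within it and KO 2 above it. The Mars change was -0.18 (SE 0.10, adjusted p = 0.249 in limma). The exons of Mars (chr10:127296221-127311786, mm10, minus strand) overlap those of the stress gene Ddit3, and the libraries do not mark strand, so reads in the overlap cannot be told apart.

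Aars, the alanyl enzyme, had 10.95, 11.21, 11.16, 11.07, 10.99 and 11.17 in WT 1 to WT 6 and 10.65, 11.05, 10.69, 11.04, 11.32 and 10.93 in KO 1 to KO 6. As for Iars, KO 1 and KO 3 were the lowest libraries and KO 5 the highest. Its change was -0.15 (SE 0.10, limma adjusted p = 0.389). Yars of tyrosine and Lars of leucine followed with -0.13 each, Dars of aspartate with -0.12 and Nars of asparagine with -0.11. Gars of glycine (-0.03) and Wars of tryptophan (-0.01) had estimates close to 0 that changed sign under other scalings. Gars gave 0.034 and Wars 0.036 after quantile normalization, and Wars gave 0.0034 when each library was centred on its median. As for Mars, exons of Aars overlap those of another gene (Exosc6), and so do those of Vars2 (Gm20483). The same holds for Yars, Cars, Nars2, Cars2, Ears2, Fars2 and Iars2.

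Hars, Kars and Sars had the highest KO means relative to WT in the cytosolic set. Hars, the histidyl enzyme, had 9.01, 8.92, 9.01, 9.08, 8.90 and 9.02 in WT 1 to WT 6 and 9.16, 9.07, 9.26, 9.00, 9.23 and 9.35 in KO 1 to KO 6. The groups overlapped through KO 2 and KO 4, and the other KO libraries lay above every WT library. The change was 0.19 (SE 0.07, 95% interval 0.04 to 0.33, limma adjusted p = 0.110; exact permutation p = 0.0195), with a KO level of 117% ± 12.3 of the WT mean. Hars and the mitochondrial Hars2 lie head to head with overlapping exons, so reads in that overlap cannot be assigned to either gene. Kars, the lysyl enzyme, had 10.89, 10.83, 10.69, 10.99, 10.70 and 10.76 in WT 1 to WT 6. Its KO values of 11.02, 10.92, 10.87, 10.91, 10.97 and 10.95 lay in the upper part of the WT range or just above it, a change of 0.13 (SE 0.07, limma adjusted p = 0.262). Sars, the seryl enzyme, had 10.69, 10.65, 10.73, 10.89, 10.62 and 10.88 in WT 1 to WT 6 and 10.80, 10.86, 10.78, 10.77, 11.01 and 10.81 in KO 1 to KO 6. Its groups overlapped, and the change was 0.10 (SE 0.08, limma adjusted p = 0.438). The estimates of the other 5 cytosolic enzymes above 0 were 0.09 for Qars of glutamine, 0.08 for Cars of cysteine, 0.07 for Vars of valine, 0.07 for Tars of threonine and 0.03 for Rars of arginine.

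Grouped by known regulation and assembly, 0 of the cytosolic members were called in any group, and differences between the groups were not tested. Of the 11 members listed as ATF4 targets (Aars, Cars, Gars, Iars, Lars, Mars, Nars, Sars, Tars, Wars and Yars), 8 had estimates below 0 and 3 above, with a median of -0.11. The lowest means of these 11 genes were those of KO 1 and KO 3, the libraries with the highest Rn45s, and without WT 1, KO 1 and KO 3 the estimates were 6 below and 5 above 0, with a median of -0.03. Of the 6 cytosolic members outside that list, 5 had estimates above 0 and 1 below, with a median of 0.08 (0.11 without the 3 libraries). The 7 members that belong to the multisynthetase complex, an assembly of cytosolic enzymes around scaffold proteins, had 3 estimates above 0 and 4 below, with a median of -0.12 (-0.05 without the 3 libraries). The structural classes of the catalytic domain gave medians of 0.03 for the 18 class I members and 0.06 for the 16 class II members.

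The 17 mitochondrial enzymes had 12 estimates above 0 and 5 below. Their median change was 0.06, and it was also 0.06 over the 16 genes without Lars2. The mean deviation of these 16 genes from their WT mean lay between -0.03 and 0.03 in WT libraries and between 0.01 and 0.11 in KO libraries. Of the 17, 5 had an unadjusted p of 0.05 or less, all with the higher value in KO, against 11.9% of all tested genes. The adjusted threshold was passed by 0 of the 17, against 6.2% of all tested genes.

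Vars2, the mitochondrial valyl enzyme, had the smallest p of all 34 genes. It had 8.39, 8.15, 8.26, 8.36, 8.40 and 8.46 in WT 1 to WT 6 and 8.60, 8.58, 8.53, 8.44, 8.48 and 8.58 in KO 1 to KO 6. Every KO library lay above the WT median, and only KO 4 fell within the WT range, just under WT 6. The change was 0.20 (SE 0.07, 95% interval 0.06 to 0.34, limma adjusted p = 0.0752; exact permutation p = 0.00433), with a KO level of 119.7% ± 6.78 of the WT mean. Tars2, the mitochondrial threonyl enzyme, had 9.03, 9.03, 9.10, 9.02, 8.92 and 9.00 in WT 1 to WT 6. Its KO values were 9.27, 9.22, 9.22, 9.01, 9.19 and 9.45, so that KO 4 lay within the WT range and the other KO libraries above it. The Tars2 change was 0.21 (SE 0.07, 95% interval 0.06 to 0.36, limma adjusted p = 0.0802), with a KO level of 119% ± 13.6 of the WT mean. Without KO 4 Tars2 was called (limma adjusted p = 0.0351) as 1 of the 34, against 7.89% of genes. After a correction for transcript length Vars2 was called (limma adjusted p = 0.0489), again as 1 of the 34 and against 5.79% of genes. At an adjusted p of 0.1 or less, 3 of the 34 passed in limma (Vars2, Tars2 and Pars2), against 13.2% of genes.

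Pars2, the mitochondrial prolyl enzyme, was the single member whose groups did not overlap, where 2.47% of all tested genes showed that. Its WT values ran from 6.79 over a median of 6.92 to 6.96 and its KO values from 7.01 over 7.09 to 7.16. The change was 0.18 (SE 0.06, 95% interval 0.05 to 0.32, limma adjusted p = 0.0903). The exact permutation p of 0.00216 is the lowest value possible with 924 assignments. A log2 difference understates the fold of so low a gene, whose KO level was 132% ± 12.4 of the WT mean, from only 36.4 to 80.4 estimated reads in a library. Sars2, the mitochondrial seryl enzyme, ran from 8.02 over 8.07 to 8.20 in WT and from 8.15 over 8.25 to 8.42 in KO, with a change of 0.16 (limma adjusted p = 0.139). Nars2, the asparaginyl enzyme, ran from 7.30 over 7.46 to 7.59 in WT and from 7.56 over 7.62 to 7.65 in KO. Its change was 0.16 (limma adjusted p = 0.157), and the KO libraries were closer together (SD 0.04) than the WT libraries (SD 0.12). All KO libraries of Sars2 and Nars2 lay above the respective WT median. This also held for Cars2, Kars, Qars and Sars, whose unadjusted limma p was above 0.05, and its share over all tested genes is not given.

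**Figure D2:**
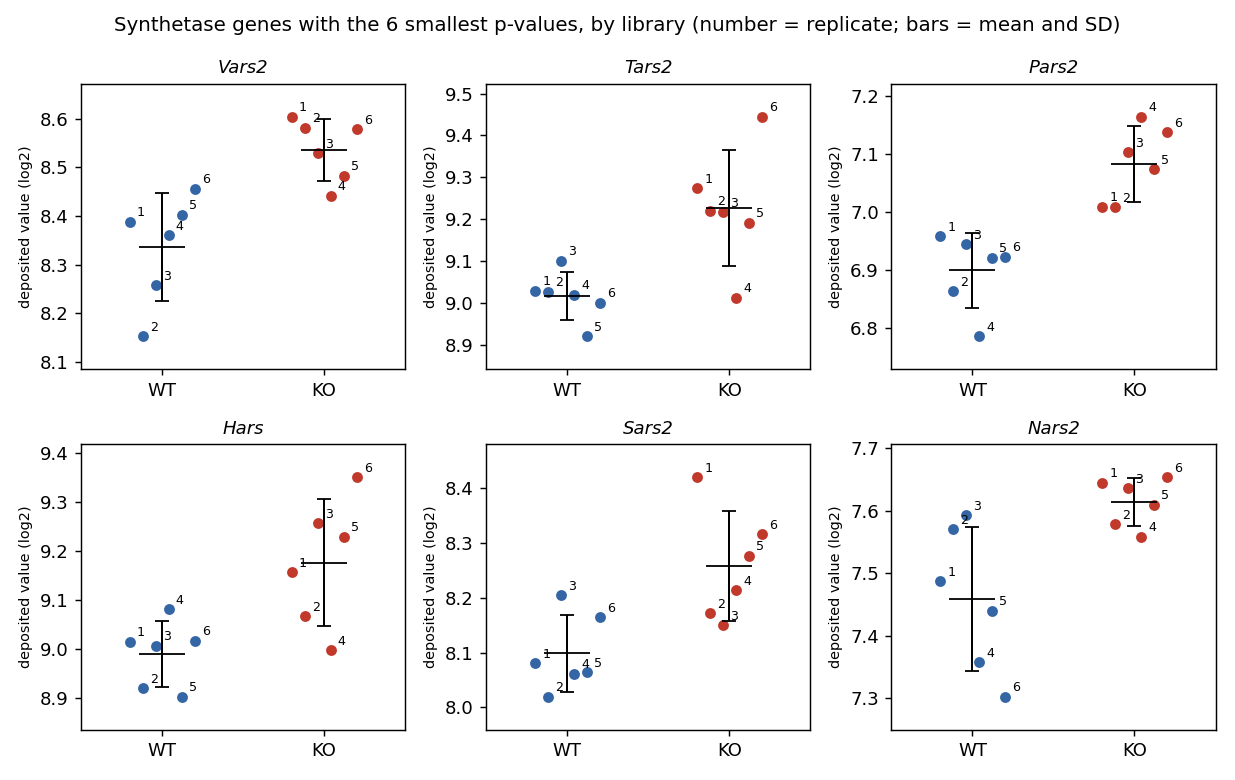
Deposited log2 value (y axis) in each library of the 6 synthetase genes with the smallest p-values; points are mice, numbers the replicate, and bars the mean and SD of 6 mice per group. The groups of Pars2 do not overlap (WT up to 6.96, KO from 7.01). KO 4 falls within the WT range of Vars2, Tars2, Hars and Nars2.

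Mars2, Wars2 and Fars2 had the lowest mitochondrial estimates. Mars2, the methionyl enzyme, had 7.41, 7.70, 7.33, 7.26, 7.51 and 7.28 in WT 1 to WT 6 and 7.45, 7.34, 7.22, 7.40, 7.44 and 7.18 in KO 1 to KO 6, a change of -0.08 (SE 0.08, limma adjusted p = 0.601). KO 3 and KO 6 lay just below the WT range and the other KO libraries inside it, and the estimate became 0.049 after the length correction. Wars2, the tryptophanyl enzyme, had 7.49, 7.48, 7.59, 7.57, 7.62 and 7.55 in WT 1 to WT 6. In KO 1 to KO 6 it had 7.37, 7.69, 7.52, 7.35, 7.51 and 7.45, a change of -0.07 (SE 0.07, limma adjusted p = 0.561), with KO 2 above and KO 1, KO 4 and KO 6 below every WT library. Fars2, which charges phenylalanine as a single chain, had 8.66, 8.71, 8.66, 8.50, 8.77 and 8.77 in WT 1 to WT 6. Its KO values were 8.57, 8.79, 8.76, 8.62, 8.39 and 8.59, a change of -0.06 (SE 0.08, limma adjusted p = 0.657) with overlapping groups. Among the other mitochondrial enzymes, the estimates were 0.11 for Ears2, 0.06 for Cars2, Rars2 and Hars2, 0.02 for Yars2, -0.01 for Iars2 and -0.03 for Aars2. Iars2 gave 0.054 after quantile normalization and 0.061 after the length correction.

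For the 2 genes with the smallest p, the promoter sequences are shown for reference, from 120 bases before to 20 bases from the start that RefSeq gives on GRCm38.p6. Vars2 is on the minus strand at chr17:35667573-35667712 and Tars2 on the minus strand at chr3:95754958-95755097. Nothing is in capitals, because none of the motifs searched below was found in these windows.
Vars2: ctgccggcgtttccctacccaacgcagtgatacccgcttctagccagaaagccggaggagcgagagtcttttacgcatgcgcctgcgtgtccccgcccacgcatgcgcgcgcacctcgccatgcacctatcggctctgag
Tars2: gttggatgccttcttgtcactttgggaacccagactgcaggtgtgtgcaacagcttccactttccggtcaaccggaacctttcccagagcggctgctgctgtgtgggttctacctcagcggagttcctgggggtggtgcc

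Lars2, the mitochondrial leucyl enzyme, had the largest estimate of all members and the widest interval. Its values were 9.26, 11.67, 11.68, 11.10, 11.52 and 11.08 in WT 1 to WT 6 and 13.65, 10.74, 13.79, 10.93, 12.12 and 12.61 in KO 1 to KO 6. WT 1 was the lowest of the 12 libraries, KO 2 and KO 4 lay within the WT range, and KO 1 and KO 3 stood above all others. The change was 1.26 (SE 0.64, 95% interval -0.16 to 2.68, limma adjusted p = 0.243). Without WT 1, KO 1 and KO 3 it was 0.19. The gene lies at chr9:123366927-123462666 (mm10, plus strand), with 458 to 15271 estimated reads in a library.

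The library order of Lars2 followed that of Rn45s, the precursor of the cytosolic ribosomal RNAs, which poly-A selection is meant to deplete. Rn45s had 7.13, 16.22, 15.86, 15.53, 15.85 and 15.69 in WT 1 to WT 6 and 17.53, 14.79, 17.59, 15.71, 16.58 and 16.92 in KO 1 to KO 6, and its own change did not pass the test (2.14, SE 1.50, limma adjusted p = 0.392). It took 0.00042% to 0.49% of the estimated reads in WT libraries and 0.181% to 1.39% in KO libraries. Over the 12 libraries the deposited values of Lars2 and Rn45s gave a Pearson r of 0.81 and a Spearman rho of 0.97 (permutation p = 1e-05 each, the smallest that the resamples can give; adjusted p = 0.00034 each over the 34 members). Without WT 1 and KO 3, which were farthest from the median of Rn45s, r was 0.96. Within the 6 WT libraries r was 0.97 (exact permutation p = 0.00972) and rho 0.89 (p = 0.0333), and within the 6 KO libraries r was 0.97 (exact permutation p = 0.00139) and rho 1.0 (p = 0.00278). The relation was noticed in the data before it was tested. For the other 33 members r with Rn45s ran from -0.40 (Mars) to 0.40 (Sars2) and rho from -0.70 (Mars) to 0.77 (Nars2). The smallest adjusted permutation p over these members was 0.0816, for the rho of Nars2.

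Part of the longest Lars2 transcript resembles other annotated RNAs. Bases 3278 to 3349 of its 3894 bases, which lie after the coding sequence ends at base 2905, match the antisense transcript Gm15564 over 72 bases at 98.6% identity. How the authors counted reads that fit several places is not given in the sources used here, and the 45S precursor sequence was not used here. The part of these reads in the Lars2 result was not tested. Summed over all 34 genes, synthetases took 0.167% ± 0.0102 of the estimated reads of a WT library and 0.199% ± 0.0345 of a KO library (SD, n = 6 each). Without Lars2 the shares were 0.152% ± 0.00585 and 0.153% ± 0.00622.

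**Figure D3:**
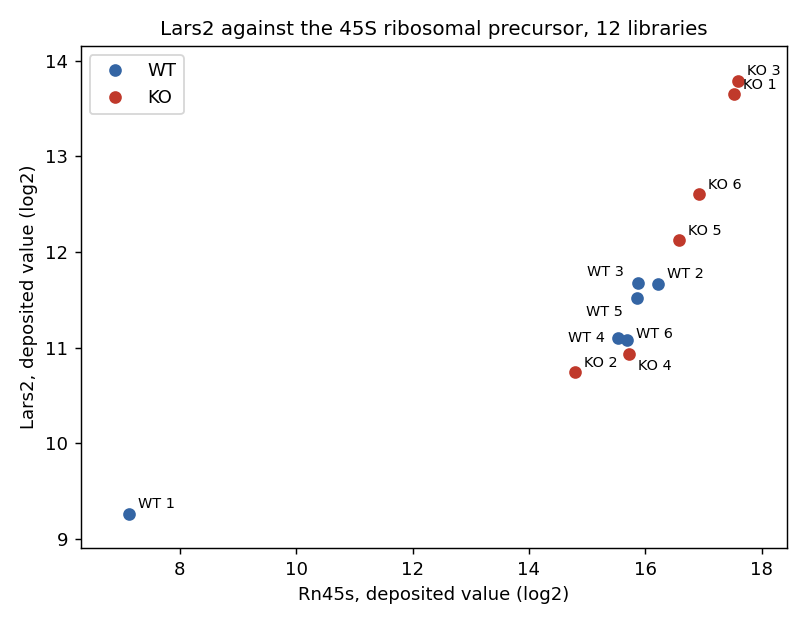
Deposited log2 value of Lars2 (y axis) against that of the ribosomal precursor gene Rn45s (x axis) in 12 libraries, blue for WT and red for KO. WT 1 lies lowest on both axes (7.13 and 9.26), and KO 1 and KO 3 highest (Rn45s at 17.53 and 17.59).

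The cytosolic synthetases tended to vary together between mice of the same genotype, while the mean correlation of the mitochondrial ones was near 0. With each value taken as its deviation from its group mean over 12 libraries, the mean pairwise correlation was 0.37 among the 17 cytosolic genes and 0.02 among the 16 mitochondrial genes without Lars2. Without WT 1, KO 1 and KO 3 the cytosolic value was 0.23, without KO 1, KO 3 and KO 5 it was 0.18, and the mitochondrial value was 0.02 in both cases. Between the cytosolic and the mitochondrial genes it was 0.04, and over all tested genes 0.00. Among the 11 ATF4 target members it was 0.52, and among the other 6 cytosolic members 0.28. This order was not seen in every subset of libraries: within WT the values were 0.225 and 0.42, and without KO 1, KO 3 and KO 5 they were 0.22 and 0.27. The closest pairs were Aars with Nars (0.93), Aars with Yars (0.92), Nars with Yars (0.91) and Aars with Iars (0.91). The mean correlation with the other cytosolic members was lowest for Hars (0.05), Wars (0.13) and Kars (0.14). These values are descriptions over 12 libraries that share their scaling. The mitochondrial genes mostly had fewer estimated reads than the cytosolic ones, and the part of counting error in their lower correlations was not tested.

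The mean correlation of the ATF4 target members was larger within the KO mice than within the WT mice, and that of the other cytosolic members smaller. Within the 6 KO libraries the mean pairwise correlation of the 11 ATF4 target members was 0.72, and within the 6 WT libraries it was 0.225. For the other 6 cytosolic members it was 0.13 within KO and 0.42 within WT, for all 17 cytosolic genes 0.47 and 0.25, and for the 16 mitochondrial genes 0.0015 and 0.019. The differences between these values were not tested. The mean deviation of these 11 genes from the WT mean was -0.24 in KO 1, 0.05 in KO 2, -0.23 in KO 3, -0.06 in KO 4, 0.15 in KO 5 and -0.05 in KO 6, whereas the WT libraries lay between -0.09 and 0.05. KO 5 had the highest KO value for 8 of the 11 genes, and KO 1 and KO 3 had the lowest for 5 each. Without KO 1, KO 3 and KO 5 the mean pairwise correlation of the 11 genes was 0.22, and without WT 1, KO 1 and KO 3 it was 0.34. KO 1 and KO 3 are also the libraries with the highest Rn45s, and the part of RNA composition in this pattern was not tested.

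**Figure D4:**
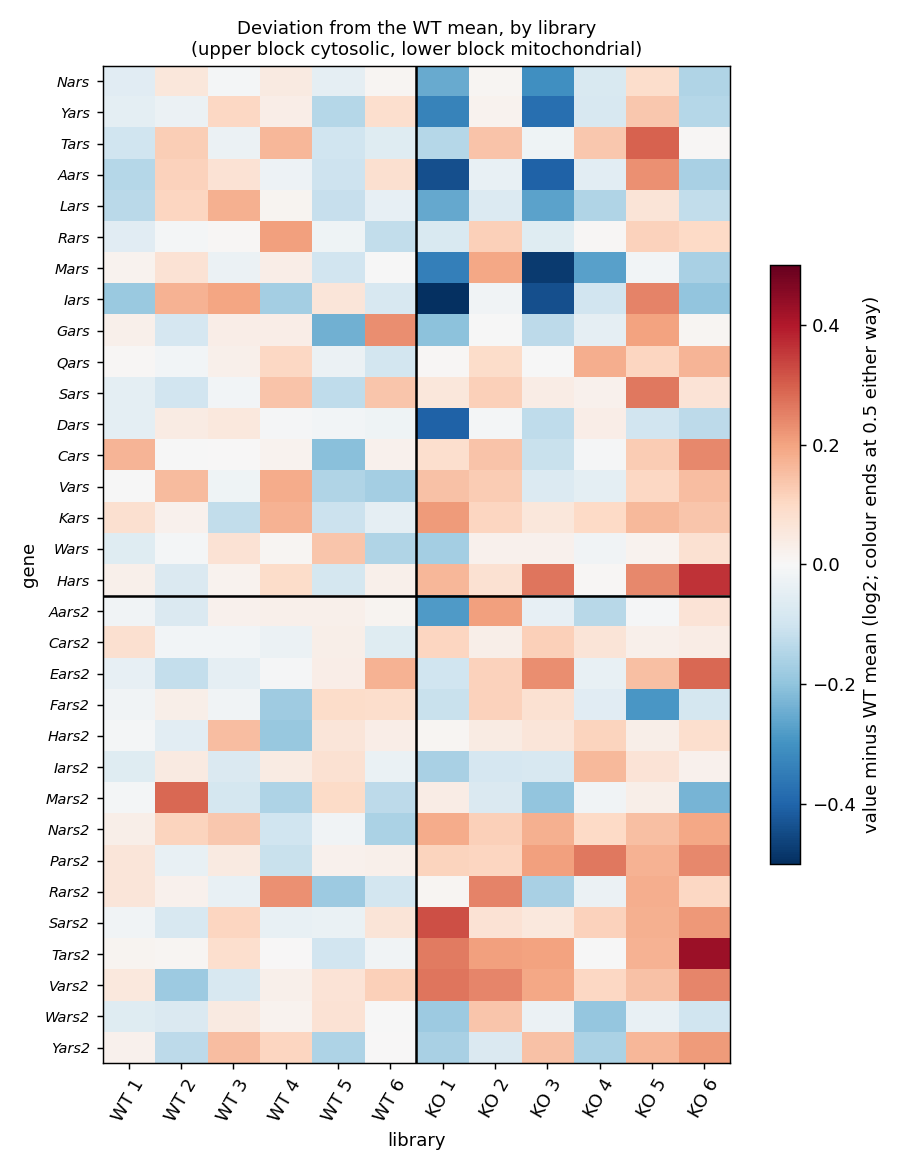
Deviation of synthetase genes from their WT means (colour, log2, blue lower and red higher) in the 6 WT and 6 KO libraries (columns), with cytosolic genes above the line and mitochondrial genes without Lars2 below it. KO 1 and KO 3 are blue and KO 5 red for Aars, Iars and Yars, while the 5 mitochondrial genes with the smallest p are red in nearly all KO libraries.

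Promoters are shown for members that held letters of an element known to bind heterodimers of ATF4 and C/EBP proteins. They were chosen for these letters and not for their correlations. RefSeq promoter windows (GRCm38.p6) were matched for 24 of the 34 members. The letters TGATGCAA on either strand occurred in 4 of these 24 (16.7%: Aars, Iars, Tars and Yars), against 1.03% of 27025 genes. The looser TGATGNAA, which includes the former, occurred in 5 of 24 (20.8%, with Gars added), against 4.51% of genes. CACGTG, the E-box letters read by Myc and related factors, occurred in 4 of 24 (16.7%: Aars, Ears2, Iars and Tars), against 8.09% of genes. A match describes these letters only. In the sequences below, read in the direction of each gene from 120 bases before to 20 bases from its start, capitals mark TGATGNAA or its reverse complement.
Aars: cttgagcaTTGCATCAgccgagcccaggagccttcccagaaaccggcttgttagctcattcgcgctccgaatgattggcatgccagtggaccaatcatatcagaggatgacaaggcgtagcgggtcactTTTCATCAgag
Iars: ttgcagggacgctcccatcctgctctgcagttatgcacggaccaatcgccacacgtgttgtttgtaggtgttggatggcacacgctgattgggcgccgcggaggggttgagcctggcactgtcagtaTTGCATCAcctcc
Tars: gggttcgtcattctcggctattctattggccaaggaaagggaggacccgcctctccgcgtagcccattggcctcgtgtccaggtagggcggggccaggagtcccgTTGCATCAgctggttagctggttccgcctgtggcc
Yars: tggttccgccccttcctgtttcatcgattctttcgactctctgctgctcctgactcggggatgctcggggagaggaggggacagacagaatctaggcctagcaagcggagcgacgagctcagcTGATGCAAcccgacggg
Gars: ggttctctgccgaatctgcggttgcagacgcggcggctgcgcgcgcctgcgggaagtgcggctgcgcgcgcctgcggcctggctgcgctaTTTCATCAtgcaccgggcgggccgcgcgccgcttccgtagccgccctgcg
The windows are chr8:111033722-111033861 (plus strand) for Aars, chr13:49682010-49682149 (plus) for Iars, chr15:11399639-11399778 (minus) for Tars, chr4:129189783-129189922 (plus) for Yars and chr6:55037881-55038020 (plus) for Gars.

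The matches lay at different distances from the start, counting the start base as 1. TGATGCAA spanned bases -112 to -105 of Aars, 8 to 15 of Iars, -15 to -8 of Tars and 4 to 11 of Yars, and it stood on the gene's own strand in Yars alone. Aars held a second, looser match at 10 to 17, and the match of Gars lay at -30 to -23. The 4 genes with TGATGCAA had a mean pairwise within-group correlation of 0.81 over the 12 libraries. This was 0.96 among the KO libraries and 0.33 among the WT libraries, and 0.42 without KO 1, KO 3 and KO 5. Their mean deviation from WT was -0.39 in KO 1, -0.31 in KO 3 and 0.23 in KO 5. This group of 4 was formed after the values had been seen. Nars is not among the members with a match, but not every member had a promoter window, and those with a window are not named here. Nars had within-group correlations of 0.93 with Aars, 0.91 with Yars, 0.86 with Tars and 0.82 with Iars. Any link between these letters and the correlations was not tested.

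Genes outside the rule that followed the same library pattern were sought in lists of related genes, as the correlation of within-group deviations with the mean of the 11 ATF4 target members. The closest were Rpp14, listed with the RNase P subunits (0.91), Eif2ak1, the heme-regulated eIF2 kinase (0.90), Eprs (0.85), the amino acid transporter gene Slc38a2 (0.83) and Farsb (0.83). Over all tested genes, 3.96% reached a correlation of 0.8 or more. Xpot, the nuclear exporter of tRNA, had 0.79, Cebpg, a C/EBP partner of ATF4, 0.75 and Atf4 itself 0.53. The 24 tested genes of the ATF4 program outside the synthetases went both ways, with 11 values above 0, 13 below and a median of -0.03. They ran from -0.79 for the stress gene Nupr1 and -0.73 for Psat1 of serine synthesis to that of Slc38a2, with Aldh18a1 of proline synthesis (0.63) and Mthfd2 of mitochondrial folate metabolism (0.63) among the higher ones.

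Of the synthetase subunits outside the rule 0 of 5 were called, with a list median of -0.05. An unadjusted p of 0.05 or less was reached by 1 of the 5, against 26.0% of all tested genes. Eprs had a change of -0.11 (limma adjusted p = 0.514), Farsa 0.05 and Farsb -0.05. The smallest p-values of this list belonged to Tarsl2, a second cytosolic threonyl enzyme (-0.22, limma adjusted p = 0.191), and to Aarsd1, an editing protein related to the alanyl enzyme (0.13, limma adjusted p = 0.322).

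Of the 3 scaffolds of the multisynthetase complex, Aimp2 rose in KO muscle. Aimp2 had 10.58, 10.67, 10.72, 11.12, 10.44 and 10.97 in WT 1 to WT 6 and 11.57, 11.09, 11.33, 11.16, 11.33 and 11.56 in KO 1 to KO 6. The groups overlapped through WT 4 and KO 2. The change was 0.59 (SE 0.12, 95% interval 0.34 to 0.84, limma adjusted p = 0.0133), with a KO level of 152% ± 21.9 of the WT mean. Without WT 1, KO 1 and KO 3 the change was 0.50 and the call was lost (limma adjusted p = 0.137), where 0.336% of all tested genes were called. Aimp1 (0.14) and Eef1e1 (0.16) were not called. The exons of Aimp2 (chr5:143902704-143909847, mm10, minus strand) overlap those of Eif2ak1 on the plus strand. Eif2ak1 had non-overlapping groups with the lower values in KO, and its change of -0.17 was not called (limma adjusted p = 0.140).

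Among 7 cytosolic elongation factors, 2 rose and 0 fell, where 3.12% of all tested genes rose, with a list median of 0.24 against -0.01 over all tested genes. Of these factors, eEF1A is the one that takes over the charged tRNA. Eef1a1, the form of eEF1A that adult muscle largely replaces with Eef1a2, rose by 0.87 (SE 0.21, limma adjusted p = 0.0335). It had 11.99, 11.73, 11.77, 11.64, 12.00 and 11.80 in WT 1 to WT 6 and 13.25, 11.65, 12.96, 12.78, 12.51 and 13.01 in KO 1 to KO 6, so that KO 2 lay within the WT range and the other KO libraries above it. Eef1b2, a subunit of the exchange factor of eEF1A, rose by 0.37 (SE 0.10, limma adjusted p = 0.0422). Eef1a2 itself had a change of -0.05 (limma adjusted p = 0.716). Each of the calls of Eef1a1 and Eef1b2 was lost without KO 1, without KO 3, without KO 6 or without 1 of the WT libraries other than WT 4. The limma adjusted p-values then reached up to 0.0795 for Eef1a1 and 0.103 for Eef1b2, and 0.231 and 0.224 without WT 1, KO 1 and KO 3.

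Of 10 mitochondrial translation factors 0 were called, and the list median was 0.04. At an unadjusted p of 0.05 or less, which 26.0% of all tested genes reached, 3 of the 10 were higher and 2 lower in KO. The smallest p-values belonged to Gfm2, which recycles mitochondrial ribosomes (-0.30, limma adjusted p = 0.0597), and to Mtrf1l, a mitochondrial release factor (0.22, limma adjusted p = 0.121). Of the 4 genes that convert misacylated glutamyl-tRNA to glutaminyl-tRNA or formylate the initiator tRNA in mitochondria, 0 were called. Gatc (-0.11, limma adjusted p = 0.427) and Mtfmt (0.09, limma adjusted p = 0.463) had the smallest p-values there. Of the 7 genes of selenocysteine insertion and tRNA proofreading 0 were called, with Sepsecs at -0.19 (limma adjusted p = 0.304) and Aarsd1 as above. Of 15 tested genes of tRNA end processing and export 0 were called. An unadjusted p of 0.05 was reached by 1 of the 15, against 26.0% of all tested genes. The smallest p-values were those of Elac2 (-0.19, limma adjusted p = 0.191) and Pop7 (0.14, limma adjusted p = 0.248).

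On the side of stress signalling, 1 of 14 genes of the eIF2 kinases and the GCN pathway fell and 0 rose, a share close to the 6.2% of all tested genes called in either direction. Ppp1r15a, which recruits a phosphatase to eIF2, fell by 0.36 on the log2 scale (SE 0.10, limma adjusted p = 0.0375), and its groups did not overlap, with WT libraries from 9.11 to 9.55 and KO libraries from 8.62 to 9.07. The call was lost when any of 9 single libraries was left out (limma adjusted p up to 0.0981). Of 24 tested genes of the ATF4 program outside the synthetases, 3 rose and 0 fell, against 3.12% and 3.08% of all tested genes, with a list median of 0.06. The risers were Psat1 (0.82), Psph (0.32) and Pycr1 (0.30), which act in serine and proline synthesis. Each of these calls was lost without WT 2, WT 3, WT 5, KO 3 or KO 6, with limma adjusted p-values up to 0.084, and that of Psat1 also with limma-voom. Atf4 itself had 11.46 ± 0.19 in WT mice and 11.46 ± 0.12 in KO mice (SD, n = 6 each; limma adjusted p = 0.999).

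The cytosolic gene of a pair stood above its mitochondrial partner in muscle. Levels between genes were compared as estimated RPKM, reads divided by library depth and by the length of the longest coding transcript, in WT. On that scale the 17 cytosolic genes had a median of 21.7, from 10.6 for Vars to 51.4 for Kars. The 16 mitochondrial genes without Lars2 had a median of 5.66, from 0.527 for Mars2 to 12.8 for Iars2. In 12 of 12 pairs compared for the same amino acid, leaving out leucine, the cytosolic level was the higher one in WT. The ratio ran from 1.58 ± 0.14 for Tars over Tars2 to 47.1 ± 8.97 for Mars over Mars2 (SD, n = 6), with a median of 3.11. In KO muscle the same ratios were 1.42 ± 0.27 and 45.1 ± 9.59. For asparagine, Nars over Nars2 gave 28.5 ± 4.27 in WT and 21.8 ± 3.04 in KO. Lars over Lars2 was the exception at 0.467 ± 0.41 in WT (SD, n = 6). WT 1, where Lars2 was lowest, had a ratio of 1.30, and without it the mean was 0.2996 ± 0.0561 (n = 5). The longest transcript is 11294 bases for Mars2 and 2962 for Mars, so the ratio depends on which transcript form the muscle uses.

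**Figure D5:**
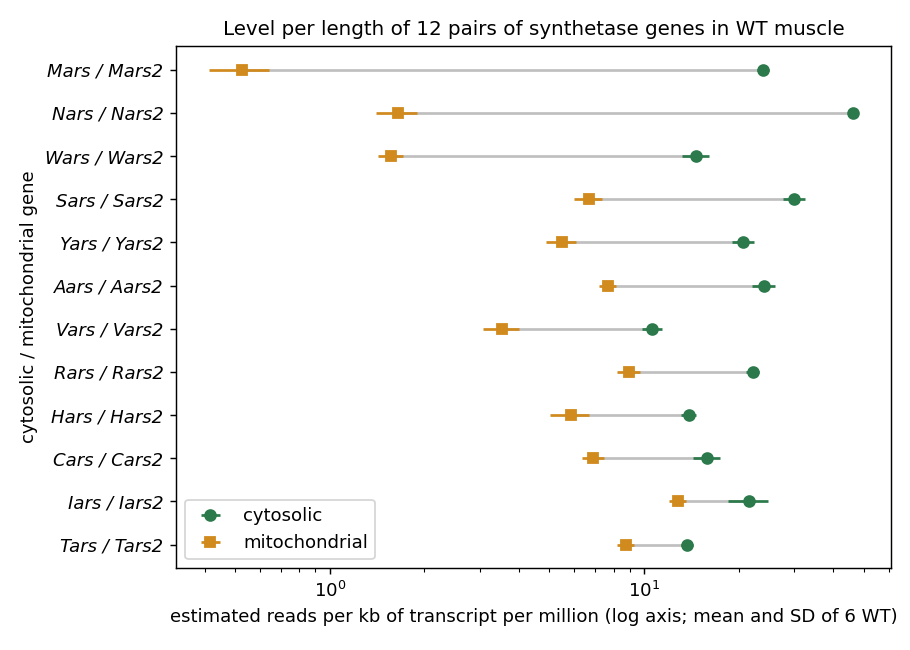
Level per length in WT muscle of 12 pairs of cytosolic (circles) and mitochondrial (squares) synthetase genes for the same amino acid, as estimated RPKM on a log axis; bars are the SD of 6 mice. The cytosolic gene is higher in every pair shown, by 1.58 times for Tars and Tars2 and by 47.1 times for Mars and Mars2.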

How the data were processed

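Poly-A RNA of gastrocnemius from 6 WT and 6 KO mice was sequenced in paired ends. Per the submitters' processing notes, fastp, STAR and featureCounts were used with the genome build mm10, without versions. Their settings and annotation were not given in the labels. The authors deposited 1 log2 value per gene and library, with a shared floor of 5.57 at which 6474 genes stood in every library, the shape of a variance-stabilized table, so that log2 differences of low genes are compressed. The transformation was inverted and the smallest step taken as 1 read, after which 89.4% to 93.7% of the low values lay within 0.1 of a whole number. These estimated reads served for the filter, depth, percent of the WT mean, levels per length and some alternatives.

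The test was limma 3.58.1 (R 4.3.3) on the deposited log2 values with group as the only term, variance trend and robust moderation, two-sided, with Benjamini-Hochberg adjustment over 12218 genes. Single genes were also compared by an exact two-sided permutation test over 924 assignments. The fit was tested on simulated data. Correlations, counts and medians used Python 3.11.15, and transcripts were aligned with blastn 2.17.0. Positions and transcript lengths come from GENCODE M21 and promoters from RefSeq, searched from 250 bases before to 50 after each start.

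The members and gene lists were chosen with earlier results of these data known, and no list was tested as a set. The values of 1 member, which is included in the counts and medians, are not reported here. Library values are given for called members and for the 3 largest estimates in each direction per class. Genes of the other lists are given when called or with the 2 smallest p-values of their list. Promoters are shown for the 2 members with the smallest p and for the members with a TGATGNAA match. Other genes, and members given by range, were named after their values were seen. Alternatives covered scaling, filter, moderation, pseudocounts of 0.5 and 0.1, limma-voom, transcript length, a replicate block, a threshold of 0.1 and the omission of libraries. Copies made by PCR were not marked by molecular identifiers, so the estimated reads can hold such copies besides counting error. They are also approximate, because the transformation was inferred from the shape of the deposited values.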

Additional observations from a re-analysis of the deposited data

Results flagged for a closer look

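Of 68 groups of 6 libraries (34 genes in WT and in KO), 2 held a library that stood apart from the rest by Dixon's test, where chance gives about 1 in 20. Dars was low in KO 1, at 9.80 against 10.08 to 10.24 in the other KO libraries. Lars2 was low in WT 1, at 9.26 against 11.08 to 11.68 in the other WT libraries, and WT 1 was also the library with the lowest Rn45s.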

How the results depend on the processing

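With 757 calls over all tested genes, 0 of the 34 synthetase genes were called. This count became 1 after the length correction (Vars2), 1 without KO 4 (Tars2) and 3 at an adjusted p of 0.1 (Vars2, Tars2 and Pars2, against 13.2% of tested genes), all of them mitochondrial, and it was 0 in the other alternatives. Leaving out each library in turn gave 0 to 1 calls among all members and among the mitochondrial ones, and 0 among the cytosolic ones. The 7 calls among related genes outside the rule became 1 to 9 when single libraries were left out and 0 without WT 1, KO 1 and KO 3, an alternative added after the data were seen. Calls over all tested genes ranged from 190 (without KO 6) to 1513 (without KO 2), were 40 without WT 1, KO 1 and KO 3, and were 1607 at an adjusted p of 0.1. The cause of these shifts was not tested.

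Among 33 members, the direction of 27 held under all 23 alternatives other than the threshold, and 6 with changes of at most 0.08 in size reversed. Without WT 1, KO 1 and KO 3, Aars2 gave 0.030, Gars 0.046, Iars2 0.031 and Wars 0.013. Quantile normalization gave 0.034 for Gars, 0.054 for Iars2 and 0.036 for Wars, centring gave 0.0034 for Wars, and the length correction gave 0.061 for Iars2 and 0.049 for Mars2. With single libraries left out, the changes ranged from -0.080 to 0.018 for Aars2, from -0.077 to 0.017 for Gars, from -0.047 to 0.018 for Iars2, from -0.038 to 0.024 for Wars and from -0.016 to 0.059 for Yars2. The cause was not tested.

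Replicate numbers share only a number: the correlation of same-numbered libraries ran from -0.36 to 0.29, and 1 of 6 WT libraries correlated best with its own number. With the replicate block 0 members and 813 genes in all were called. Median confidence half-widths of 0.16 (cytosolic) and 0.15 (mitochondrial) limit what these 12 libraries can show.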
